A study of Mus musculus with 4 samples.

Results

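The genes described here are 32 markers of the walls, vessels and connective tissue of the mouse testis, out of 22274 genes in the deposited count table. They were chosen by name and comprise 8 genes of the contractile apparatus of peritubular myoid and smooth muscle cells, 2 receptors for platelet-derived growth factor (PDGF), 10 genes of endothelial cells, 7 genes of the interstitial matrix and 5 genes of the basement membrane. The table's own symbols matched 31 lines exactly and 33 when case was ignored, because Acta2 and Actg2 are written there in capitals. One further line carries the symbol Egfl7 but the identifier of Gm20532, had 0, 0, 0 and 1 counts, and was not used. All 32 genes were found by Ensembl identifier, and 31 passed the filter on low counts. The gene left out of the test was Emcn.

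Testis RNA came from adult wild-type mice (WT, 2 libraries) and from adult mice in which Fam170a was knocked out (KO, 2 libraries). The series addresses the part of Fam170a in spermiogenesis, the remodelling of round haploid spermatids into sperm. No treatment, strain or exact age is given in the labels, nor is the part of Fam170a that was removed, nor whether each library stands for another animal. The p-values therefore cover only how far these 4 libraries spread, and that spread may be technical. For KO replicate 2 the genotype is labelled with Fam171a instead of Fam170a. Fam170a had 2240 and 3510 counts in WT replicates 1 and 2 and 1 count in each KO library, so that both libraries labelled KO lacked nearly all of the transcript (log2 fold change -11.49 ± 0.19 SE, edgeR adjusted p = 4.24e-05).

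The seminiferous tubule is wrapped in flattened peritubular myoid cells, smooth-muscle-like cells whose contraction moves sperm towards the rete testis and which lay down the tubule's basement membrane together with the Sertoli cells inside it. Blood vessels run outside the tubules, in the interstitium with Leydig cells, macrophages and fibroblast-like cells, and do not enter the tubule. All of these cells are a small minority beside the germ cells, so their transcripts are a small part of whole-testis RNA. A bulk library cannot tell apart fewer cells of a type and less RNA per cell.

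Total counts ran from 26029374 to 41684437 per library. Levels are given as CPM, counts scaled by library size and TMM factors, and comparisons between genes as CPM per kilobase of merged exon length. Fold changes compare KO with WT on the log2 scale and come from edgeR's quasi-likelihood test across all 15636 genes that passed the filter, with an adjusted p under 0.05 as the threshold. Germ cell markers were high, as in testis, where the 10 elongated spermatid markers summed to 5224 to 12964 CPM in WT and 6899 to 10204 CPM in KO, and the 11 spermatocyte markers to 5961 to 6068 CPM in WT and 5789 to 6144 CPM in KO. The 32 genes together made up 425 and 337 CPM in WT replicates 1 and 2 and 413 and 394 CPM in KO replicates 1 and 2. Of these sums Actg2 alone made up 197 and 127 CPM in WT and 154 and 175 CPM in KO. Postmeiotic germ cells also transcribe Actg2, so the sums are not the level of walls, vessels and matrix alone.

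Each WT library stood apart from the other 3 libraries in some lists. In WT replicate 2 the macrophage and leukocyte markers summed to 10.2 CPM, against 44.0 in WT replicate 1 and 56.1 and 32.8 in KO replicates 1 and 2. Dcn was 5.41-fold, Pdgfra 3.02-fold and Col1a2 2.65-fold lower there than in WT replicate 1, while Fn1 and Col1a1 were higher there. In WT replicate 1 the Leydig cell markers were high, at 28.5 CPM in sum against 15.6 in WT replicate 2 and 15.0 and 13.9 in KO replicates 1 and 2. The Sertoli cell markers other than Tjp1, which many cell types express, summed there to 153 CPM against 75.5 in WT replicate 2 and 59.9 and 69.8 in KO. Of the 32 genes, 11 differed more than 1.5-fold between the WT libraries and 9 between the KO libraries. Values are therefore given for each library.

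None of the 31 tested genes passed the test, against 0.908% of all tested genes (0.454% higher and 0.454% lower in KO). Adjusted p-values ran from 0.0867 for Col3a1 to 0.961 for Actg2 by edgeR. At an unadjusted p under 0.05, 4 of the genes were higher and 6 lower in KO, where 11.8% and 12.8% of all tested genes were. DESeq2 called 2 genes, Col3a1 and Col1a2, both higher, where it called 6.47% of all genes, and limma-voom called 0, where it called 0.895%. The median log2 fold change of the 31 genes was -0.05, beside 0.01 for all tested genes, with 15 positive and 16 negative values. Both KO libraries lay above both WT libraries for 10 genes and below them for 11, and the same held for 29.4% and 27.9% of all tested genes.

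The roles differed in the sign of their values. Of 8 contractile genes, 6 had both KO libraries below both WT libraries and 0 had them above. Of 7 interstitial matrix genes 4 lay above and 1 below, and of 5 basement membrane genes 3 lay above and 0 below. Of 9 tested endothelial genes 2 lay above and 3 below. Among all tested genes 29.4% lay above and 27.9% below. Median log2 fold changes were -0.53 for the contractile, -0.52 for the endothelial, 0.52 for the interstitial matrix and 0.42 for the basement membrane genes. With 1 library left out at a time, the medians ran from -0.64 to -0.35, from -0.69 to -0.20, from 0.55 to 0.78 and from 0.22 to 0.45 in the same order. No single gene in these counts passed the test, and the groups were not tested.

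**Figure D1:**
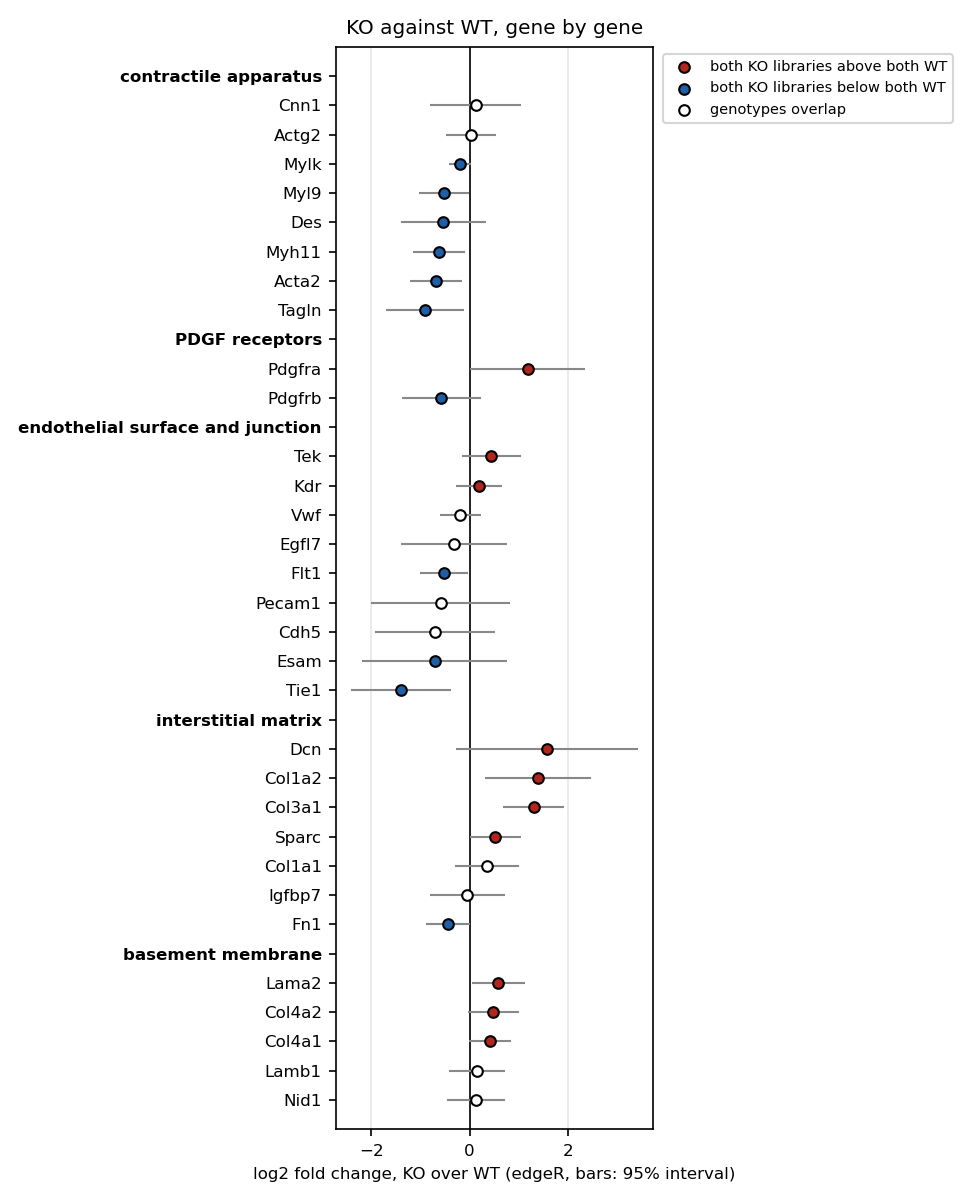
Log2 fold change of KO over WT for the 31 tested genes (x axis; points), with 95% intervals from edgeR (bars), grouped by role. Red and blue points have both KO libraries above or below both WT libraries, and open points overlap. Of 8 contractile genes 6 are blue, and 7 of the 12 matrix and basement membrane genes are red. Among all tested genes 29.4% lay above and 27.9% below.

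The contractile genes encode the actin and myosin filaments of smooth muscle and their regulators, many of which are known targets of serum response factor (SRF). SRF binds the CArG box, which has CC and GG around a core of 6 bases that are A or T. The stretches below hold boxes found before the start sites of 2 contractile genes, Acta2 and Myl9, and the exact box of Lama2. Lama2 is a basement membrane gene whose fold change had the opposite sign, and the stretches are shown for that contrast. Boxes with 1 other core base in Myl9, Col1a2, Kdr and Egfl7 are not shown, so the contrast rests on the stretches picked. Capitals mark the box, and each stretch is written 5′ to 3′ on the strand of its gene, from RefSeq promoters on GRCm38.p6.
Acta2 distal: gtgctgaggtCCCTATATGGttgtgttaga
Acta2 proximal: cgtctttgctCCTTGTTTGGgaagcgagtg
Myl9: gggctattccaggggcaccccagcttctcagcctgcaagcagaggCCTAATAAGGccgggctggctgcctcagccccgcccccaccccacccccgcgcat
Lama2: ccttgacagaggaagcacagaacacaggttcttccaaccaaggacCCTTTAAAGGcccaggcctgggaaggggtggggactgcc

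The Acta2 stretches lie on the reverse strand of chromosome 19 at chr19:34255438-34255467 and chr19:34255388-34255417, before the RefSeq start and inside the longer first exon of Acta2-201 in GENCODE M21. Each of the 2 boxes has 1 core base other than A or T. The Myl9 stretch lies on the forward strand at chr2:156775258-156775357, outside the gene's annotated transcripts, and its box begins 161 bases before the start site. The Lama2 stretch lies on the reverse strand at chr10:27616943-27617026, in an intron of Lama2-206, and its box begins 39 bases before the start site. The table held promoters of 21 of the 32 genes. An exact CArG box in the 250 bases before the start was found for 2 of them, Myl9 and Lama2, and in 1.47% of all 32851 promoter windows. With 1 other core base allowed it was found for 6, adding Acta2, Col1a2, Kdr and Egfl7, and in 8.59% of all windows. Of the 5 contractile genes with a window, Des, Cnn1 and Mylk had no box of either kind. As a pattern, CC and GG around bases that are A or T, the box is the same on both strands, though the letters of a given box can differ. A match describes these letters and does not show binding.

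Acta2, smooth muscle alpha-actin and the usual marker of peritubular myoid cells (ENSMUSG00000035783, chromosome 19 from 34241090 to 34255590, reverse strand), was at 6.11 and 6.75 CPM in WT replicates 1 and 2 and at 3.33 and 4.67 CPM in KO replicates 1 and 2. Both KO libraries were lower than both WT libraries, with a log2 fold change of -0.68 ± 0.22 (SE; 95% interval -1.22 to -0.15; edgeR adjusted p = 0.143). Myh11, the smooth muscle myosin heavy chain (ENSMUSG00000018830, chromosome 16 from 14194535 to 14291372, reverse strand), was at 6.15 and 8.71 CPM in WT and 4.58 and 5.11 CPM in KO. Its groups did not overlap either, and its log2 fold change was -0.62 ± 0.21 (edgeR adjusted p = 0.162).

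Tagln, which encodes the actin-binding protein transgelin, was at 3.30 and 3.64 CPM in WT and 2.39 and 1.33 CPM in KO. The KO libraries were again both lower and differed 1.80-fold from each other (log2 fold change -0.91 ± 0.32, edgeR adjusted p = 0.168). Myl9, the regulatory light chain that switches smooth muscle myosin on when phosphorylated, was at 3.88 and 3.61 CPM in WT and 2.80 and 2.40 CPM in KO (log2 fold change -0.53 ± 0.21, edgeR adjusted p = 0.192). Mylk, the kinase that phosphorylates that light chain, was at 42.1 and 43.2 CPM in WT and 36.4 and 37.9 CPM in KO. Replicates of Mylk were within 1.04-fold of each other, and its 95% interval on the log2 scale ran from -0.43 to 0.03 (edgeR adjusted p = 0.243).

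The remaining contractile genes were low or overlapped. Des, the intermediate filament protein desmin, had 23 and 43 counts in WT and 27 and 24 in KO, or 0.883 and 1.12 CPM against 0.788 and 0.613 CPM (log2 fold change -0.53 ± 0.35, edgeR adjusted p = 0.386). Cnn1, the actin-binding protein calponin, had 17 and 42 counts in WT and 36 and 35 in KO, and its levels of 0.653 and 1.10 CPM in WT enclosed those of 1.05 and 0.893 CPM in KO. Actg2, the gamma-actin of enteric smooth muscle, which is also transcribed in postmeiotic germ cells of the mouse, was at 197 and 127 CPM in WT and 154 and 175 CPM in KO. Its groups overlapped, and the 95% interval of its log2 fold change ran from -0.49 to 0.53.

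Actg2 stood far above the other contractile genes in its level. Per kilobase it had a mean of 105 CPM over the 4 libraries, against 3.63 for Sparc, the next of the 32 genes, and 2.37 for Acta2. Its counts were 32.2, 18.8, 46.2 and 37.4 times those of Acta2 in WT replicates 1 and 2 and KO replicates 1 and 2. Actin genes share much of their coding sequence. Since the treatment of reads matching several of them is unknown here, their individual levels are uncertain. Exons of Tagln share bases with Pcsk7 on the opposite strand, which was at 17.7 and 19.0 CPM in WT and 15.3 and 11.6 CPM in KO. Its part in the Tagln counts was not tested.

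**Figure D2:**
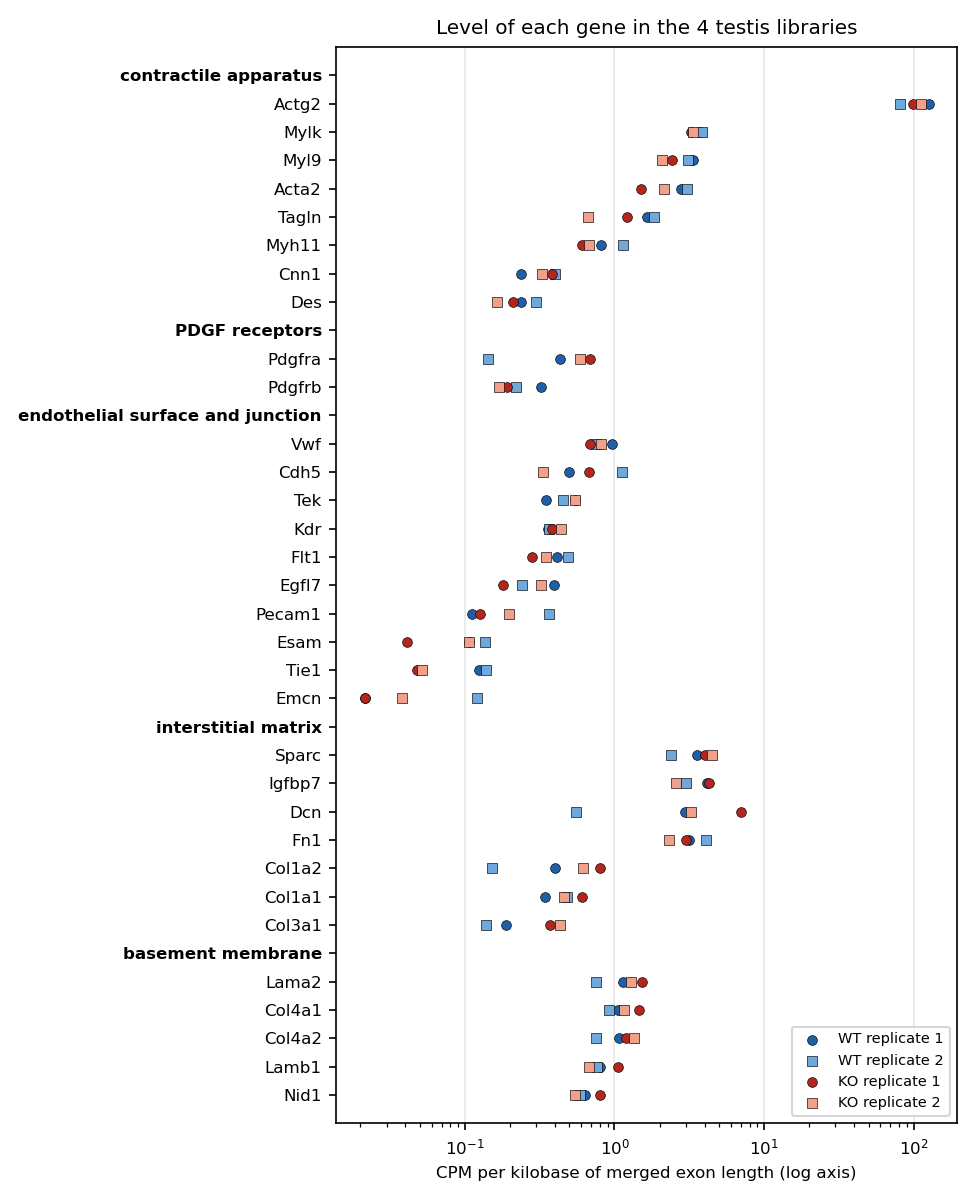
CPM per kilobase of merged exon length (log axis) for each of the 32 genes in the 4 libraries, ordered by mean within each role. Actg2 stands at 81.6 to 126 CPM per kilobase and no other gene exceeds 7.04; WT replicate 2 is the lowest library for Dcn, Col1a2, Col3a1 and Pdgfra.

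The PDGF receptors had fold changes of opposite sign. Pdgfra, the receptor that marks fibroblast-like interstitial cells and progenitors of Leydig cells, was at 4.34 and 1.44 CPM in WT and 6.86 and 5.90 CPM in KO. Both KO libraries were higher than both WT libraries, while the WT libraries differed 3.02-fold from each other (log2 fold change 1.18 ± 0.47, edgeR adjusted p = 0.201). Pdgfrb, the receptor of pericytes and vascular smooth muscle, had 46 counts in each WT library and 36 in each KO library, or 1.77 and 1.20 CPM against 1.05 and 0.919 CPM. The groups did not overlap, and the 95% interval of its log2 fold change ran from -1.38 to 0.23 (edgeR adjusted p = 0.323). Of 11 ligands of PDGF, VEGF and angiopoietin receptors, 10 were tested and 0 passed by edgeR. On unadjusted p 1 was higher and 0 lower, where 11.8% and 12.8% of all tested genes were. Of the tested ligands 6 had positive and 4 negative fold changes, and the pair with the smallest p were both positive. Pdgfd was at 5.15 and 4.604 CPM in WT and 7.64 and 6.59 CPM in KO, and Pdgfc at 3.88 and 2.88 CPM against 5.05 and 4.44 CPM.

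The endothelial genes included the 3 lowest of the 32 per kilobase. Endothelial cells are joined by Cdh5 (VE-cadherin), Pecam1 and Esam, and receive VEGF through Kdr and Flt1 and angiopoietins through Tek, with Tie1 as the relative of Tek that has no ligand of its own. Esam, Tie1 and Emcn were at a mean of 0.0979, 0.0907 and 0.0504 CPM per kilobase over the 4 libraries, and the highest of the endothelial genes, Vwf, the clotting factor stored in endothelial cells, was at 0.803 CPM per kilobase.

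Among the receptors, Tie1 had the largest fold change. It had 16 and 26 counts in WT and 8 and 10 in KO, or 0.615 and 0.680 CPM against 0.233 and 0.255 CPM. The KO libraries were both lower, with a log2 fold change of -1.40 ± 0.41 (95% interval -2.42 to -0.37; edgeR adjusted p = 0.132), and the exact Poisson 95% interval of a count of 8 alone runs from 3.45 to 15.8. Flt1, the VEGF receptor that also acts as a decoy, was at 5.57 and 6.57 CPM in WT and 3.76 and 4.72 CPM in KO, without overlap (log2 fold change -0.52 ± 0.20, edgeR adjusted p = 0.185). Kdr, the main signalling receptor for VEGF, was at 3.27 CPM in both WT libraries and at 3.47 and 3.98 CPM in KO, and Tek was at 1.65 and 2.12 CPM against 2.57 and 2.58 CPM. KO libraries of both these receptors were above WT, in the opposite direction to Tie1 and Flt1, with log2 fold changes of 0.19 ± 0.19 and 0.44 ± 0.24 (edgeR adjusted p of 0.580 and 0.313).

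Pecam1, Cdh5 and Emcn differed between the WT libraries. Pecam1 had 18 and 87 counts in WT and 27 and 48 in KO, or 0.691 and 2.28 CPM against 0.788 and 1.23 CPM. Cdh5 was at 2.07 and 4.71 CPM in WT and 2.86 and 1.40 CPM in KO. Emcn, a sialomucin of capillary and venous endothelium, had 3 and 25 counts in WT and 4 and 8 in KO. In all 3 genes WT replicate 2 was the highest library, and the other WT library lay within or below the KO range. Esam had 8 and 15 counts against 4 and 12, which is 0.307 and 0.392 CPM against 0.117 and 0.306 CPM, and its 95% interval ran from -2.18 to 0.76 on the log2 scale. Vwf was at 15.4 and 12.1 CPM in WT and 11.0 and 13.0 CPM in KO and overlapped. Egfl7, a secreted endothelial protein whose gene hosts Mir126a, was at 1.42 and 0.863 CPM in WT and 0.642 and 1.15 CPM in KO. Egfl7 exons share bases with Agpat2 on the opposite strand, which was far higher at 64.5 and 22.2 CPM in WT and 35.5 and 45.3 CPM in KO.

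The interstitial matrix genes held the largest positive fold changes among the 32. Col3a1, the chain of type III collagen (ENSMUSG00000026043, chromosome 1 from 45311538 to 45349706, forward strand), had 48 and 52 counts in WT and 124 and 165 in KO. These are 1.84 and 1.36 CPM against 3.62 and 4.21 CPM, so that the lower KO library was well above the higher WT library. Its log2 fold change of 1.302 ± 0.25 (95% interval 0.68 to 1.92; edgeR adjusted p = 0.0867) passed the threshold with DESeq2 (adjusted p = 0.0106) and without a filter on low counts (edgeR adjusted p = 0.0419), a fit that called 2.3% of all genes. Col1a2, a chain of type I collagen, was at 4.99 and 1.88 CPM in WT and 9.92 and 7.63 CPM in KO. Its log2 fold change of 1.38 ± 0.44 (edgeR adjusted p = 0.142) passed with DESeq2 (adjusted p = 0.0250). Col1a1, the partner chain of Col1a2 in type I collagen, did not share its pattern, at 2.27 and 3.17 CPM in WT and 3.997 and 3.01 CPM in KO, with overlapping groups (log2 fold change 0.35 ± 0.27, edgeR adjusted p = 0.449).

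Dcn, the small proteoglycan decorin that coats collagen fibrils, was at 17.4 and 3.22 CPM in WT and 41.1 and 19.0 CPM in KO. WT replicate 1 and KO replicate 2 were close, and the 95% interval of its log2 fold change of 1.57 ran from -0.29 to 3.43 (edgeR adjusted p = 0.260). Sparc, a secreted collagen-binding protein, was at 13.6 and 9.05 CPM in WT and 15.2 and 17.1 CPM in KO, without overlap (log2 fold change 0.52 ± 0.21, edgeR adjusted p = 0.204). Fn1, fibronectin, went the other way, at 36.8 and 47.6 CPM in WT and 35.4 and 27.1 CPM in KO (log2 fold change -0.43 ± 0.18, edgeR adjusted p = 0.212). Igfbp7, a secreted binding protein of insulin-like growth factors, was at 5.03 and 3.61 CPM in WT and 5.19 and 3.11 CPM in KO and overlapped. Its exons share bases with Polr2b on the opposite strand, which was at 50.6 and 68.2 CPM in WT and 43.8 and 36.7 CPM in KO.

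Counts of a matrix gene and of a contractile gene can be set against each other within a library, where scaling has no part. The counts of Col3a1 divided by those of Acta2 gave 0.302 and 0.202 in WT replicates 1 and 2 and 1.09 and 0.902 in KO replicates 1 and 2. Col1a2 over Myh11 gave 0.813 and 0.216 in WT and 2.17 and 1.495 in KO, and Dcn over Tagln gave 5.27 and 0.885 in WT and 17.2 and 14.3 in KO. Each of the 3 ratios was higher in both KO libraries than in both WT libraries. The choice of pairs fixed this outcome. In each pair the matrix gene had both KO libraries above WT and the contractile gene had both below. The pairs were picked after the values were seen, and no test was made of them.

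The basement membrane genes all had positive fold changes, smaller than those of Col3a1 and Col1a2. Lama2, the laminin alpha chain of muscle-type basement membranes (chromosome 10 from 26980036 to 27619758, reverse strand), was at 18.7 and 12.2 CPM in WT and 25.1 and 21.1 CPM in KO, without overlap (log2 fold change 0.58 ± 0.22, 95% interval 0.04 to 1.13; edgeR adjusted p = 0.182). Col4a1 and Col4a2 encode the chains of the main type IV collagen network and lie head to head on chromosome 8, transcribed in opposite directions from start sites next to each other. Col4a1 was at 7.84 and 6.88 CPM in WT and 10.9 and 8.68 CPM in KO, and Col4a2 at 7.14 and 4.94 CPM in WT and 7.91 and 8.88 CPM in KO. Both had KO libraries above WT, with log2 fold changes of 0.42 ± 0.17 and 0.48 ± 0.21 (edgeR adjusted p of 0.211 and 0.230), and the counts of Col4a1 over Col4a2 were 1.10 and 1.39 in WT and 1.38 and 0.977 in KO. Lamb1, a laminin beta chain, was at 7.87 and 7.53 CPM in WT and 10.4 and 6.66 CPM in KO, and Nid1, which ties laminin to type IV collagen, at 4.38 and 4.08 CPM against 5.51 and 3.75 CPM. For both, KO replicate 1 was above and KO replicate 2 below the WT libraries.

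**Figure D3:**
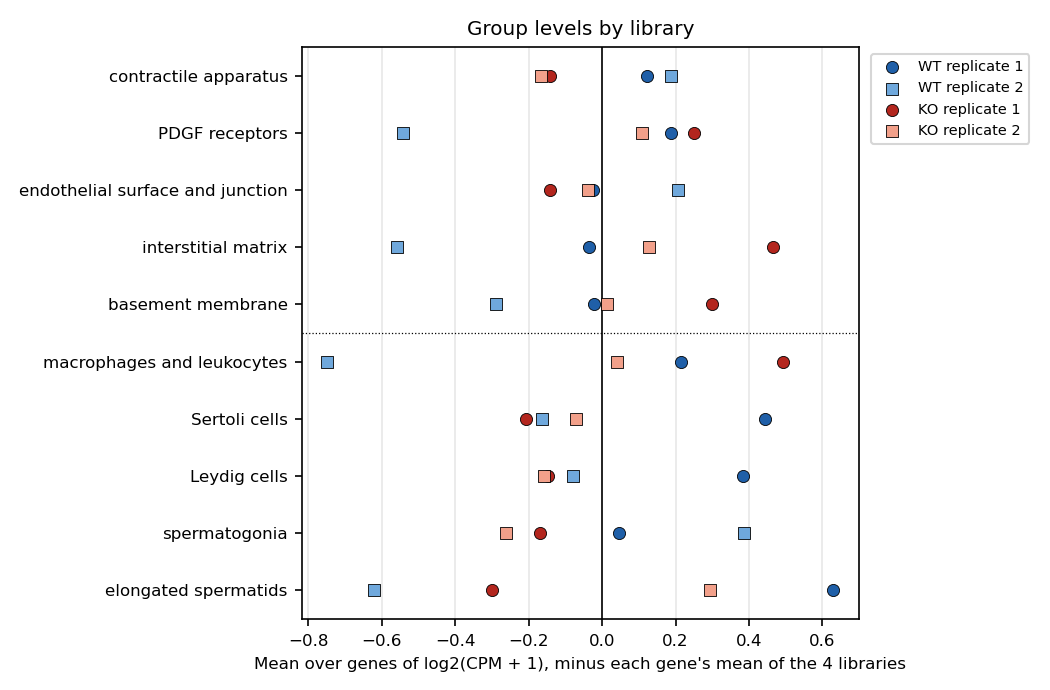
Mean over the genes of each list of log2(CPM + 1), minus each gene's mean of the 4 libraries (x axis), by library; the 5 roles stand above the dotted line and marker lists of other cells below it. The contractile genes place both KO libraries (-0.14 and -0.17) below both WT libraries (0.12 and 0.19). So do the endothelial genes, the Leydig cell list and the spermatogonial list (KO -0.17 and -0.26, WT 0.046 and 0.39). The interstitial matrix and basement membrane genes place both KO libraries above both WT libraries. WT replicate 2 is the lowest library for interstitial matrix (-0.56) and for macrophages (-0.75).

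Markers of other cells moved between the same libraries. Of 16 macrophage and leukocyte genes 0 passed by edgeR. On unadjusted p 2 were higher and 0 lower, where 11.8% and 12.8% of all tested genes were. Of the 16 genes 14 had positive fold changes around a median of 0.83, and none was at 0 in any library. That median was 0.20 without WT replicate 2 and 2.06 without WT replicate 1. Ptprc was at 0.807 and 0.366 CPM in WT and 1.95 and 1.23 CPM in KO, and Cd163 at 0.307 and 0.131 CPM against 1.14 and 0.485 CPM. Of 8 tested Leydig cell genes all were negative, around a median of -0.78. Without WT replicate 1 that median was -0.041, with 4 positive and 4 negative values. Insl3 was at 5.42 and 2.33 CPM in WT and 1.23 and 1.15 CPM in KO, and Star at 3.995 and 4.499 CPM against 3.09 and 1.91 CPM. Of 16 tested Sertoli cell genes 12 were negative, around a median of -0.48. Without WT replicate 1 that median was 0.11, with 11 positive values. The summed level of all 18 entries was 327 and 259 CPM in WT and 265 and 268 CPM in KO, of which Tjp1 made up 174 and 184 CPM in WT and 205 and 198 CPM in KO. Sox9 was at 1.61 and 0.968 CPM in WT and 0.263 and 0.383 CPM in KO, and Ctsl at 31.96 and 23.5 CPM against 17.6 and 14.7 CPM. By edgeR 0 genes of the Leydig and Sertoli lists passed. At an unadjusted p under 0.05, 2 and 3 were lower, where 12.8% of all tested genes were. The part of these cells in the matrix and contractile values was not tested.

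Lists for tissue from outside the tubules and interstitium had low sums, carried mostly by 1 gene in several of them. Epididymal and efferent duct markers summed to 6.41 to 6.93 CPM in WT and 6.62 to 7.73 CPM in KO, and Lcn5, Lcn8 and Cdh16 had 0 counts in all libraries. Crisp1 had 0 and 2 counts in WT and 7 and 12 in KO and did not pass the filter. Rnase10 made up 4.26 and 5.39 CPM in WT and 4.55 and 5.51 CPM in KO, and per kilobase its mean of 2.96 CPM was above that of Acta2. Of this list, Defb21 was at 0.384 and 0.183 CPM in WT and 0.233 and 0.459 CPM in KO and Defb30 at 1.54 and 1.28 CPM against 1.55 and 1.46 CPM. Skeletal muscle markers summed to 2.75 to 3.30 CPM in WT and 2.19 to 3.17 CPM in KO, with Actn3 at 1.9975 and 1.83 CPM against 1.46 and 1.66 CPM and Mylpf at 0.269 and 0.419 CPM against 0.117 and 0.408 CPM. Adipocyte markers summed to 3.69 to 3.96 CPM and 4.65 to 4.93 CPM, of which Adipoq, at a mean of 2.53 CPM per kilobase, made up 3.34 and 2.72 CPM in WT and 3.88 and 4.03 CPM in KO, and Cidec was at 0.307 and 0.471 CPM against 0.292 and 0.102 CPM. Red blood cell markers summed to 0.549 to 1.77 CPM and 0.438 to 0.791 CPM, of which Alas2 made up 1.31 and 0.366 CPM in WT and 0.263 and 0.383 CPM in KO, and every globin gene of the list was at 0 in at least 1 library. Mesothelial markers summed to 3.37 to 4.65 CPM and 4.14 to 4.67 CPM, with Gpm6a at 0.883 and 1.18 CPM against 2.28 and 2.71 CPM and Wt1, which Sertoli cells also express, at 3.50 and 1.94 CPM against 1.72 and 1.35 CPM. In the order given, these lists had 3, 3, 2, 1 and 2 tested genes, and none of the genes passed the edgeR test. At an unadjusted p under 0.05 only Gpm6a, higher in KO, was among them. Of all tested genes 11.8% were higher and 12.8% lower at that threshold.

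Further genes of the same tissues did not pass the test either. Of 16 other smooth muscle genes 14 were tested and 0 passed by edgeR. On unadjusted p (threshold 0.05) 2 were higher and 0 lower, where 11.8% and 12.8% of all tested genes were. The median log2 fold change of that list was 0.01. The examples were Pln, the phospholamban of the calcium store, at 13.1 and 12.5 CPM in WT and 17.1 and 18.6 CPM in KO, and Mrtfa, a coactivator of SRF, at 72.4 and 68.4 CPM against 82.6 and 84.9 CPM. The list was split, with 7 positive and 7 negative values. Both KO libraries were above WT for 4 genes and below for 4, beside 29.4% and 27.9% of all tested genes. The tropomyosin genes Tpm1 and Tpm2 were among the 4 below, with log2 fold changes of -0.39 ± 0.21 and -1.32 ± 0.57 (edgeR adjusted p of 0.296 and 0.221). Of 6 tested pericyte genes 0 passed, while 0 were higher and 2 lower on unadjusted p (threshold 0.05). Rgs5, a defining pericyte gene, was at 1.77 and 3.09 CPM in WT and 0.963 and 1.02 CPM in KO, and Mcam at 11.2 and 16.5 CPM against 10.2 and 7.51 CPM. The list was split as well, with 3 positive and 3 negative values around a median of -0.06, and Abcc9, at 1.27 and 1.70 CPM in WT and 1.93 and 2.195 CPM in KO, lay above WT in both KO libraries, as did Cspg4.

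Of 26 other endothelial genes 19 were tested and 0 passed by edgeR. On unadjusted p (threshold 0.05) 2 were higher and 1 lower, where 11.8% and 12.8% of all tested genes were. The median log2 fold change of the endothelial list was -0.29, with 8 positive and 11 negative values. Without WT replicate 2 that median was 0.098, with 11 positive and 8 negative values. Both KO libraries lay above WT for 5 genes and below for 4, beside 29.4% and 27.9% of all tested genes. Erg, a transcription factor of endothelial identity, was at 1.84 and 2.43 CPM in WT and 0.788 and 0.868 CPM in KO (log2 fold change -1.37 ± 0.29, edgeR adjusted p = 0.0942). Prox1, known for lymphatic endothelium, was at 18.3 and 15.7 CPM in WT and 23.1 and 22.2 CPM in KO. Per kilobase its mean of 2.36 CPM was above the 0.803 CPM of Vwf, and which cells it came from was not tested. Icam2, Aplnr, Clec14a and Gpihbp1 had 0 counts in at least 1 library. Of 16 tested genes of hedgehog and TGF-beta signalling, pathways that act on myoid and Leydig cell development, 0 passed, while 2 were higher and 1 lower on unadjusted p (threshold 0.05). In that list 9 of the 16 values were negative, around a median of -0.27. With 1 library left out at a time that median ran from -0.14 to -0.048. Tgfbr3, a TGF-beta coreceptor, was at 19.6 and 16.7 CPM in WT and 27.2 and 24.9 CPM in KO. Ptch1, the gene lower on unadjusted p, was at 2.92 and 6.25 CPM in WT and 2.19 and 1.74 CPM in KO.

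Matrix genes outside the 32 were mixed. Of 29 tested genes of other collagens and interstitial matrix 0 passed by edgeR. On unadjusted p (threshold 0.05) 6 were higher and 2 lower, where 11.8% and 12.8% of all tested genes were. Of the 29 genes 18 had positive fold changes, and their median was 0.21 on the log2 scale. Both KO libraries were above both WT libraries for 13 and below them for 5, beside 29.4% and 27.9% of all tested genes. Bgn, the proteoglycan biglycan and a close relative of Dcn, was at 5.69 and 3.74 CPM in WT and 11.8 and 8.17 CPM in KO (log2 fold change 1.09 ± 0.28, edgeR adjusted p = 0.112). Postn, the matrix protein periostin, was at 4.38 and 5.86 CPM in WT and 8.26 and 9.62 CPM in KO. Of 20 other basement membrane genes 0 passed, while 3 were higher and 3 lower on unadjusted p (threshold 0.05), among them Dag1, the laminin receptor dystroglycan, at 30.4 and 35.0 CPM in WT and 20.1 and 17.7 CPM in KO (log2 fold change -0.79 ± 0.13, edgeR adjusted p = 0.0695). Col4a3 was at 4.46 and 4.39 CPM in WT and 6.94 and 8.63 CPM in KO. Of 16 tested matrix proteases and inhibitors 0 passed by edgeR, and on unadjusted p 3 were higher and 3 lower. Timp3, an inhibitor of matrix metalloproteases, was at 5.19 and 4.66 CPM in WT and 2.92 and 2.55 CPM in KO, and Adamts5, a protease of proteoglycans, at 1.77 and 0.549 CPM against 3.97 and 3.83 CPM.

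The genes past the edgeR test in any of the lists were in germ cell lists. Among all tested genes 0.454% were higher and 0.454% lower by that test. Of 12 tested spermatogonial genes 1 was lower, Id4 at 13.1 and 15.2 CPM in WT and 7.21 and 6.46 CPM in KO, and Uchl1 was at 15.1 and 16.1 CPM against 9.92 and 10.7 CPM. Of 11 spermatocyte genes 1 was lower, Piwil1 at 231 and 261 CPM in WT and 84.6 and 76.2 CPM in KO, and Spag6 was at 166 and 167 CPM against 210 and 202 CPM. Of 10 round spermatid genes 1 was higher, Spaca7 at 99.7 and 99.0 CPM in WT and 155 and 170 CPM in KO, and Pou5f2 was at 8.87 and 5.91 CPM against 3.73 and 2.81 CPM. Both KO libraries lay below both WT libraries for 10 of the 12 spermatogonial genes and above them for 1. For spermatocyte genes these counts were 5 and 4, and for round spermatid genes 1 and 8. Among all tested genes 27.9% lay below and 29.4% above. Median log2 fold changes of these lists were -0.66, 0.11 and 0.22 in that order. On unadjusted p (threshold 0.05) 5, 4 and 1 were lower and 0, 1 and 6 higher, where 12.8% and 11.8% of all tested genes were. Of 10 elongated spermatid genes 0 passed by edgeR or at an unadjusted p under 0.05, and Prm1 and Prm2 differed more between WT libraries, at 1066 and 322 CPM and at 2587 and 693 CPM, than between genotypes.

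The result for the 32 genes depended most on WT replicate 1. Without it, edgeR called 8 of them higher and 5 lower, where it called 21.2% of all tested genes. The 8 were Col1a2, Dcn, Pdgfra, Lama2, Col3a1, Sparc, Col4a2 and Actg2, and the 5 were Fn1, Myh11, Cdh5, Acta2 and Pecam1. That fit compares both KO libraries with WT replicate 2 alone, the library that was low in Dcn, Col1a2, Pdgfra and macrophage genes, and there Dcn had a log2 fold change of 3.16. Without WT replicate 2 the value for Dcn was 0.78 and none of the 32 genes passed, where 5.45% of all genes did. Without KO replicate 1 or KO replicate 2 none passed either, against 0.149% and 0.131% of all genes. Over the 4 fits with 1 library left out, log2 fold changes ran from 1.08 to 1.47 for Col3a1, from 0.80 to 2.16 for Col1a2, from 0.54 to 2.09 for Pdgfra, from -0.95 to -0.46 for Acta2 and from -0.90 to -0.35 for Myh11. Pecam1 was at -0.59 with all libraries, -1.22 without WT replicate 1 and 0.54 without WT replicate 2.

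**Figure D4:**
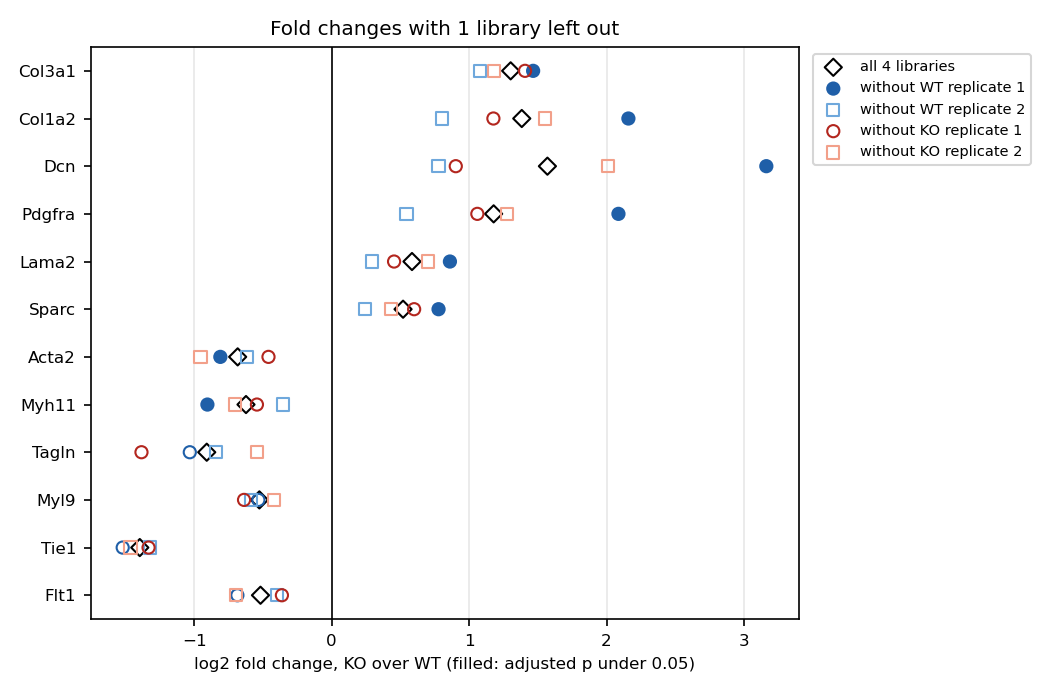
Log2 fold change of KO over WT (x axis) for 12 of the genes, with all 4 libraries and with each library left out; filled symbols have an edgeR adjusted p under 0.05. All filled symbols are from the fit without WT replicate 1, and Dcn moves from 0.78 to 3.16 with the WT library that is left.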

How the data were processed

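Poly(A) RNA of adult mouse testis was sequenced from 2 WT and 2 KO libraries, per the labels' protocols. The deposited values are whole read counts per Ensembl gene, with no normalization by the authors visible in them. The submitters' processing notes name, in no stated order or role, RSEM, StringTie 1.3.1, HISAT2 2.1.0, Bowtie2 2.2.8 and fastp 0.18.0. For the authors' genome build, strand setting and treatment of multiply matching reads, the sources used here give nothing.

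Columns were matched to libraries by genotype and replicate number. Genes were matched by Ensembl identifier to GENCODE M21 (GRCm38), which named 22219 of the 22274 identifiers. The test was edgeR 4.0.16 (R 4.3.3). A gene entered it after filterByExpr (minimum count 10, minimum total 15), libraries were scaled with TMM factors, and genotype was the only term of the two-sided quasi-likelihood test. Benjamini-Hochberg adjustment ran across every gene tested, and the threshold was 0.05. CPM used the TMM-scaled library sizes, and CPM per kilobase divided by the merged exon length. Each SE is the absolute log2 fold change over the root of F. The size of the fold changes was checked on simulated counts drawn from the real means, with a spread set by level alone. The error rate of the test on these libraries was not checked.

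Scaling was repeated with total counts, upper quartile factors and DESeq2 size factors. The filter was replaced by none (any count in any library) or by 1 CPM in 2 or more libraries. Other fits used limma-voom (limma 3.58.1), DESeq2 1.42.0, the replicate number as a block, or 3 of the 4 libraries. A fit without 1 library takes its spread from the other genotype's pair. The text names all 32 listed genes, of each other list the up to 2 tested genes with the smallest p and any gene past the threshold, and Fam170a. One gene that this rule names is not reported here. Pcsk7, Agpat2 and Polr2b are named besides because their exons overlap those of a listed gene. Tjp1, Rnase10, Crisp1, Tpm1, Tpm2, Abcc9, Cspg4 and Ptch1 are named after their values were seen. The 12 genes in the plot of fold changes with a library left out were picked after their values were seen. The genes and all lists were chosen with earlier results of these data known. Total counts per library of 26029374 to 41684437 set the precision, and intervals for single counts cover counting error only. Promoter stretches came from a RefSeq table on GRCm38.p6.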

Additional observations from a re-analysis of the deposited data

How the results depend on the processing

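With 2 libraries per genotype and 8 of the 32 genes under 100 counts in every library, small differences were not detectable. Over 70 named genes and 12 alternatives, 745 of 832 fold changes kept their direction and side of the threshold, 53 passed only under the alternative, 13 no longer passed and 21 changed sign. The 71 genes higher and 71 lower in KO became 171 and 280 without the filter, 383 and 628 with DESeq2, and 32 higher with total counts. Leaving out 1 library gave 13 to 1374 higher and 8 to 2034 lower, both highest without WT replicate 1. Of the 32 genes, 0 were called higher with TMM and edgeR, 1 without the filter, 2 with DESeq2 and 0 to 8 with 1 library left out, and 0 to 5 were then called lower. Their median log2 fold change of -0.05 became -0.15 with total counts (where that of all genes moved from 0.01 to -0.10), -0.12 without the filter, 0.070 with the 1 CPM filter and -0.17 to 0.023 with 1 library left out. With the replicate number as a block, 6 genes were higher and 3 lower, 0 of the 32 were called and their median was -0.08. The labels do not say that a number pairs libraries, and deviations of same-numbered libraries had a correlation of -0.24 across genes. With total counts Actg2 was at -0.078 and Defb30 at -0.010. With 1 library left out, signs changed within the ranges -0.24 to 0.56 for Cnn1, -0.27 to 0.31 for Actg2, -1.22 to 0.54 for Pecam1, -1.28 to 0.023 for Cdh5, -0.81 to 0.029 for Egfl7, -0.46 to 0.27 for Igfbp7, -0.21 to 0.44 for Lamb1, -0.17 to 0.38 for Nid1, -0.23 to 0.86 for Defb21, -0.044 to 0.17 for Defb30, -1.55 to 0.22 for Mylpf, -1.04 to 0.81 for Prm2 and -0.96 to 0.72 for Prm1. The cause of these changes was not tested.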
